A study of Mus musculus with 11 samples.

Results

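Described here are 9 genes of the transforming growth factor β (TGF-β) system, taken by gene name from the 25121 genes of the deposited expression table: the ligand genes Tgfb1 and Tgfb2, the receptor genes Tgfbr1 and Tgfbr2, the latent TGF-β binding protein genes Ltbp1, Ltbp2 and Ltbp4, and Tgfbi and Thbs1, which encode secreted proteins and are known targets of the pathway. They were measured by poly(A)-selected RNA sequencing in 11 libraries of mouse macrophages grown from bone marrow. In every culture the macrophages sat on a Transwell insert over primary renal proximal tubular epithelial cells, and every culture received TGF-β1 protein at 5 ng/mL for 72 h. In 6 libraries (replicates 1 to 6) nothing else was added, and in 5 (replicates 2 to 6) hemin, the chloride form of oxidised heme, was present at 10 µM. The labels give no strain, age or sex. No library came from cultures without TGF-β1 or from macrophages alone, so the comparison shows what hemin changed on top of TGF-β1 in the co-culture. The labels do not say whether libraries of a group came from separate animals or cultures, so the p-values below speak only of the spread among these libraries, which may be technical.

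TGF-β is made as a precursor whose propeptide stays wrapped around the mature growth factor and keeps it inactive. Latent TGF-β binding proteins anchor this latent complex in the matrix, and on macrophages the membrane protein encoded by Nrros can hold it instead. Integrins, thrombospondin 1 and proteases can free the ligand, which binds the type II receptor, and this recruits and activates the type I receptor and through it the transcription factors SMAD2 and SMAD3.

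Across the libraries 15132 genes passed the filter on low counts, and all 9 genes were among them. The libraries without hemin held 65.5 M to 71.5 M counts, and the hemin libraries 66.7 M to 96.6 M. Levels of 1 gene are given as CPM (counts scaled to a common, TMM-normalised library size), and levels of different genes are compared only as the deposited FPKM (fragments scaled to gene length and library size), which take length into account. A gene passed when its edgeR quasi-likelihood adjusted p over all tested genes was under 0.05, and log2 fold changes are hemin over TGF-β1 alone. The macrophage label held: all 8 macrophage markers were expressed, with a summed level of 4422 to 6418 FPKM without hemin and 5143 to 6063 FPKM with it. Lyz2, at a mean of 3279 FPKM, was the largest part of that sum. Cd68 (log2 fold change 0.33, edgeR adjusted p = 0.00139) and Adgre1 (0.17, edgeR adjusted p = 0.00893) were higher with hemin. In 10 other settings Adgre1 did not pass in 4 and Cd68 in 1. Of the 4 proximal tubule markers found in the table, the summed level was at most 0.140 FPKM in any library. The 8 wider epithelial markers were not absent: their sum ran from 8.19 to 16.6 FPKM with TGF-β1 alone and from 4.23 to 15.2 FPKM with hemin. Cdh1, the E-cadherin gene, averaged 3.83 FPKM, the injury marker gene Havcr1 3.17 and Epcam 0.0370 FPKM. Of the 7 that were tested 2 were lower with hemin, Cdh1 (log2 fold change -1.36, edgeR adjusted p = 1.77e-06) and the keratin gene Krt19 (-1.99, edgeR adjusted p = 0.00682). The rest did not pass and went both ways. Log2 fold changes were 1.03 for Havcr1, 1.01 for Cdh16, 0.62 for Pax8, -0.22 for Krt18 and -0.05 for Krt8. The list thus did not move in a single direction. The part of epithelial RNA in the results was not tested.

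Of the 9 genes, 2 were higher with hemin (Tgfb1 and Tgfbi), 3 were lower (Tgfbr2, Ltbp2 and Thbs1) and 4 did not pass (Tgfb2, Tgfbr1, Ltbp1 and Ltbp4). Among all tested genes 14.2% passed, 8.43% higher and 5.75% lower. That balance depended on the scaling: by edgeR 1276 genes were higher and 870 lower, while limma on log2(FPKM + 1) called 685 higher and 2186 lower, 27.3% of 10499 genes. That fit tested 6 of the 9 genes, and the same 5 passed, in the same directions. In CPM the 2 groups did not overlap for the same 5 genes, against 10.2% of all tested genes. The largest changes were falls, 2.70-fold for Ltbp2 and 2.26-fold for Thbs1, while Tgfb1 rose 1.24-fold and Tgfbi 1.41-fold.

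**Figure D1:**
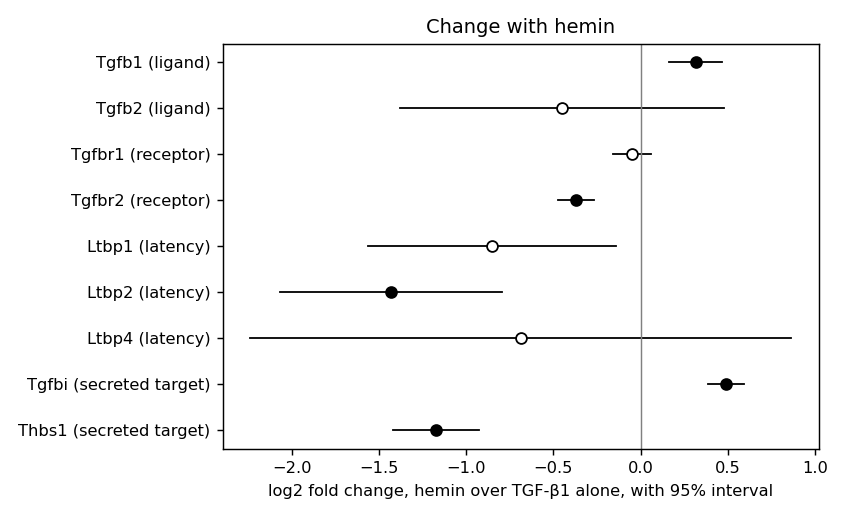
Log2 fold change (hemin over TGF-β1 alone, horizontal axis) of the 9 genes, ordered by role, with the 95% interval of the edgeR fit as lines. Filled points passed at an adjusted p under 0.05. Tgfb1 and Tgfbi lie to the right of 0, and Tgfbr2, Ltbp2 and Thbs1 to the left. The intervals of Tgfb2 and Ltbp4 are the widest along with that of Ltbp1.

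The stretches just before the transcription starts of 4 of the 5 genes that passed are shown because these genes moved with hemin in opposite directions, Tgfb1 and Tgfbi up, Tgfbr2 and Ltbp2 down. They are the 250 bases before the start as annotated by RefSeq on GRCm38.p6, an earlier build than that of the expression table, 5′ to 3′ on the strand of the gene: chr7:25686752-25687001 (plus strand), chr13:56609336-56609585 (plus strand), chr9:116175364-116175613 (minus strand) and chr12:84876492-84876741 (minus strand). Capitals mark, on either strand, CAGAC (the box bound by SMAD proteins), TGANTCA (the AP-1 site) or TGACNNNGC (the core of the antioxidant response element bound by NRF2). Of the 9 genes 8 were matched in the RefSeq table, all but Thbs1.
Tgfb1: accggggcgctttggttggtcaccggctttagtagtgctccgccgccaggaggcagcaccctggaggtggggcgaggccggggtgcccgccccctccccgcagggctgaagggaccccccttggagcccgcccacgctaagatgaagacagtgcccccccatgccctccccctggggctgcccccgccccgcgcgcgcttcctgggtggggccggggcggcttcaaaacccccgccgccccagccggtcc
Tgfbi: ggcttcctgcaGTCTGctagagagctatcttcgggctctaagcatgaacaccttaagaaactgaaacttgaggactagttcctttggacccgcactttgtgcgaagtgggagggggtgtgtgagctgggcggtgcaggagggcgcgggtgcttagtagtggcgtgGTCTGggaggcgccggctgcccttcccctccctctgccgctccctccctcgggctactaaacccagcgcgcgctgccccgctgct
Tgfbr2: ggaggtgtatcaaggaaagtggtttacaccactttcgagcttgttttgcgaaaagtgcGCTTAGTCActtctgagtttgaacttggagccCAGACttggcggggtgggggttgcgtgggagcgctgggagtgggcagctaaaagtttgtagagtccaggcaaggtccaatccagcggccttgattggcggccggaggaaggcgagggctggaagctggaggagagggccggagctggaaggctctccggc
Ltbp2: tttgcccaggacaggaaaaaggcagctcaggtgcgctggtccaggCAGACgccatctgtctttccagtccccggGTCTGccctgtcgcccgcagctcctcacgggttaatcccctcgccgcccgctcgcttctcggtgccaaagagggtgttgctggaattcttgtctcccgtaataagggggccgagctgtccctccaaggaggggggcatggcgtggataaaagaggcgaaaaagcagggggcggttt
The window of Tgfb1 held none of these letters and was rich in G and C, at 75.2%. Those of Tgfbi and Ltbp2 held CAGAC at 2 places each, and that of Tgfbr2 at 1 place. CAGAC occurs in 42.1% of the 27025 windows of this length, 1 per gene. The window of Tgfbr2 also held TGACNNNGC, on the minus strand of the motif, as do 10.1% of windows. Among the genes that did not pass, Tgfbr1 and Ltbp4 held TGACNNNGC too, and Tgfb2 and Ltbp1 held CAGAC. None of the 8 windows held TGANTCA, found in 6.87%. A gene that rose and genes that fell thus share the same letters, and a match of letters is no evidence of binding.

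The deposited levels per length spanned several orders of magnitude. With TGF-β1 alone Tgfbi stood highest at 266 ± 17.5 FPKM (mean ± SD, n = 6), followed by Tgfb1 at 88.1 ± 8.50, Thbs1 at 47.5 ± 8.91, Tgfbr2 at 24.5 ± 1.92 and Tgfbr1 at 23.7 ± 1.94 FPKM. Ltbp2 came far below at 1.58 ± 0.725 FPKM, and Tgfb2 (0.221 ± 0.142), Ltbp1 (0.127 ± 0.0573) and Ltbp4 (0.0662 ± 0.0352 FPKM) were lowest. By mean FPKM over all libraries Tgfbi ranked 127 and Tgfb1 434 among the 25121 genes of the table. Within the libraries with TGF-β1 alone this order held in 6 of 6 for each neighbouring pair except Tgfbr2 over Tgfbr1 and Tgfb2 over Ltbp1, which held in 5 of 6.

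With hemin the middle of the order closed up. Tgfbi (347 ± 19.7 FPKM, n = 5) and Tgfb1 (102 ± 3.97) remained first and second in 5 of 5 libraries. Tgfbr1 at 21.2 ± 1.20, Thbs1 at 19.5 ± 3.30 and Tgfbr2 at 17.6 ± 1.01 FPKM followed. Their order was not stable, since Tgfbr1 exceeded Thbs1 in 3 of 5 libraries and Thbs1 exceeded Tgfbr2 in 3 of 5. Thbs1, which stood above both receptor genes in all 6 libraries with TGF-β1 alone, was thus at their level with hemin.

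**Figure D2:**
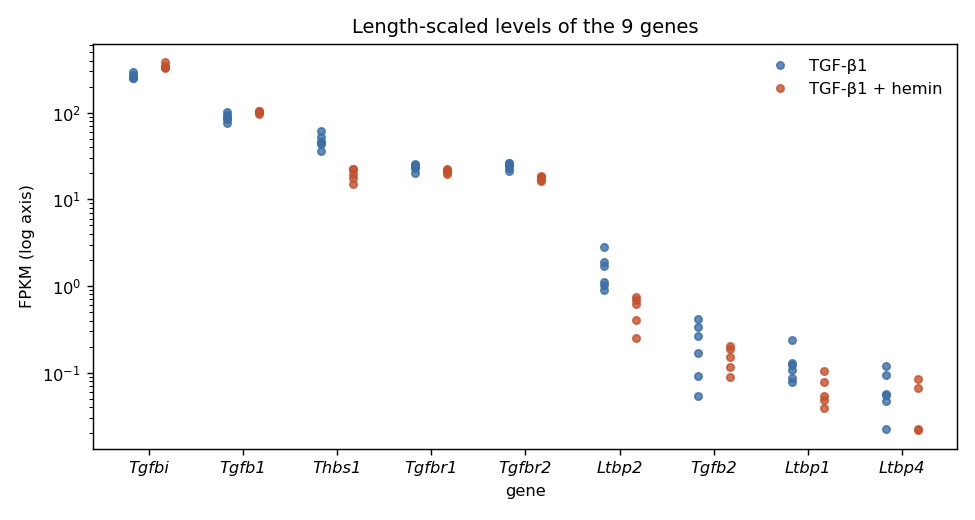
FPKM (log axis) of the 9 genes in each library, ordered by the mean over all libraries, with TGF-β1 alone in blue and with hemin in orange. Each point is 1 library, and the library in which Ltbp4 had no count is not drawn. Tgfbi and Tgfb1 lie highest in both groups, and the points of Thbs1 with hemin lie among those of the receptor genes.

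Tgfb1 (ENSMUSG00000002603, chromosome 7, 25386427 to 25404502, plus strand, GRCm39, like all gene positions below), which encodes the main TGF-β of immune cells, was the ligand gene of these macrophages. It supplied 98.2% to 99.4% of the summed FPKM of Tgfb1, Tgfb2 and Tgfb3 with TGF-β1 alone and 99.1% to 99.6% with hemin. Its level with TGF-β1 alone ran from 392 to 554 CPM with a median of 446, and with hemin it was 597, 561, 555, 583 and 579 CPM in replicates 2 to 6. The groups did not overlap, but by a narrow margin: the highest library with TGF-β1 alone (replicate 2) was at 554.0 and the lowest with hemin (replicate 4) at 555.2. The mean rose from 462 ± 57.1 to 575 ± 16.9 CPM (log2 fold change of 0.32 with SE 0.07, adjusted p = 0.00590 by edgeR). On the deposited FPKM the groups overlapped, with a range of 76.5 to 101 against 95.6 to 106. In limma on log2(FPKM + 1) with no filter on low values Tgfb1 did not pass (log2 fold change 0.21, adjusted p = 0.0597).

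Tgfb2 (ENSMUSG00000039239, chromosome 1, 186354989 to 186438186, minus strand) encodes a second TGF-β ligand, prominent in epithelium and mesenchyme. It had only 23 to 182 counts per library with TGF-β1 alone and 40 to 113 with hemin. Its level ran from 0.329 to 2.45 CPM with a median of 1.34 with TGF-β1 alone, and was 1.32, 0.561, 0.787, 1.23 and 0.968 CPM with hemin. The hemin values all lay inside the range of the other group. The log2 fold change was -0.45 with a 95% interval from -1.38 to 0.48 (edgeR adjusted p = 0.594), so neither a rise nor a fall of moderate size could be resolved at these counts. A transcript on the opposite strand, Gm35546, overlaps it and averaged 0.0674 CPM.

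The receptor genes differed in what the test found. Tgfbr2 (ENSMUSG00000032440, chromosome 9, 115913361 to 116004428, minus strand) encodes the type II receptor, which binds the ligand first. It ran from 191 to 218 CPM with TGF-β1 alone, median 211, and was 152, 166, 155, 167 and 165 CPM with hemin. Every hemin library was below every other library. The mean fell from 208 ± 11.0 to 161 ± 7.08 CPM, 1.29-fold lower (log2 fold change of -0.37 with SE 0.05, adjusted p = 4.83e-05 by edgeR).

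Tgfbr1 (ENSMUSG00000007613, chromosome 4, 47353222 to 47414931, plus strand) encodes the type I receptor, the kinase that phosphorylates SMAD2 and SMAD3. It ran from 144 to 172 CPM with a median of 161 with TGF-β1 alone, and was 161, 162, 156, 143 and 152 CPM with hemin. The groups overlapped almost wholly. The log2 fold change was -0.05 with a 95% interval from -0.16 to 0.06 (edgeR adjusted p = 0.618), an interval that does not reach the fall seen for Tgfbr2. The ratio of Tgfbr2 to Tgfbr1 in FPKM, which does not depend on library scaling, was 0.977 to 1.08 in the libraries with TGF-β1 alone and 0.754 to 0.929 in those with hemin, without overlap. No test was made of that ratio.

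**Figure D3:**
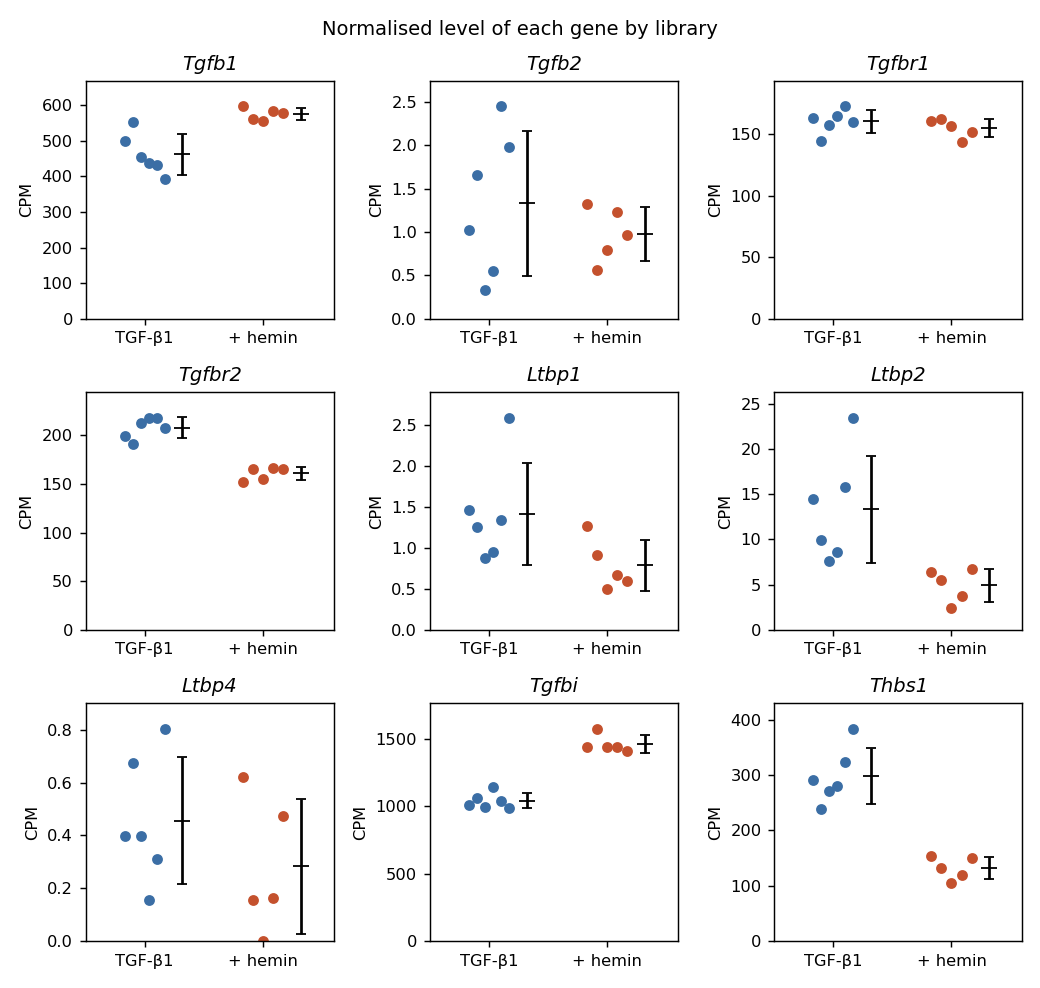
Normalised level (CPM, vertical axis from 0) of each of the 9 genes, with 1 point per library in order of replicate number and the mean ± SD beside the points (n = 6 with TGF-β1 alone, n = 5 with hemin). The groups are apart for Tgfb1, Tgfbr2, Ltbp2, Tgfbi and Thbs1. TGF-β1 replicate 6 is the highest library for Ltbp1, Ltbp2, Ltbp4 and Thbs1.

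Among the latency genes Ltbp2 was the most abundant of the 3, and it alone passed. The gene (ENSMUSG00000002020) lies on chromosome 12 from 84829986 to 84923306, minus strand. Its protein sits on elastic fibres and, unlike its relatives, is not known to bind latent TGF-β. Its level ran from 7.66 to 23.5 CPM with TGF-β1 alone, median 12.2, and was 6.34, 5.55, 2.39, 3.70 and 6.68 CPM with hemin. All hemin libraries were lower, though replicate 6 at 6.68 came close to TGF-β1 replicate 3 at 7.66 CPM. The mean fell from 13.3 ± 5.94 to 4.93 ± 1.83 CPM (log2 fold change of -1.43 with SE 0.30, adjusted p = 0.00342 by edgeR). Transcripts on the opposite strand inside the gene, D030025P21Rik and Gm56550, averaged 0.148 and 0.107 CPM.

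Ltbp1 (ENSMUSG00000001870, chromosome 17, 75312563 to 75699507, plus strand), whose protein binds all TGF-β forms and secures them to fibrillin, was rare, with 61 to 180 counts per library with TGF-β1 alone and 34 to 81 with hemin. It ran from 0.871 to 2.59 CPM, median 1.30, and was 1.26, 0.911, 0.495, 0.664 and 0.592 CPM with hemin. The groups overlapped, with hemin replicates 2 and 3 above the lowest TGF-β1 library. The log2 fold change was -0.85 (95% interval from -1.56 to -0.14), which did not pass over all genes (edgeR unadjusted p = 0.0223, adjusted p = 0.113).

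Ltbp4 (ENSMUSG00000040488, chromosome 7, 27004561 to 27037117, minus strand), whose protein takes part in elastic fibre assembly and binds latent TGF-β1, was the lowest of the 9. It had 11 to 56 counts with TGF-β1 alone and 40, 11, 0, 15 and 44 counts with hemin. The 0 in hemin replicate 4 allows a level of up to 0.0437 CPM (3 counts, counting error only). The log2 fold change was -0.69 with a 95% interval from -2.24 to 0.87 (edgeR adjusted p = 0.635), so no difference was detectable at this depth. Most transcripts of the family came from Ltbp3, at 13.5 ± 1.80 FPKM in the libraries without hemin and 11.4 ± 1.17 with it, and its log2 fold change of -0.14 did not pass (edgeR adjusted p = 0.259). Ltbp2 supplied 6.07% to 16.4% of the summed FPKM of Ltbp1, Ltbp2, Ltbp3 and Ltbp4 with TGF-β1 alone and 2.45% to 5.81% with hemin.

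The secreted targets went opposite ways. Tgfbi (ENSMUSG00000035493, chromosome 13, 56757336 to 56787375, plus strand) encodes a matrix protein that binds collagen and integrins and is named for its induction by TGF-β. It ran from 989 to 1140 CPM with TGF-β1 alone, median 1027, and was 1441, 1575, 1443, 1438 and 1409 CPM with hemin. Every hemin library exceeded every other one, with replicate 3 highest (log2 fold change of 0.49 with SE 0.05, adjusted p = 3.22e-06 by edgeR).

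Thbs1 (ENSMUSG00000040152, chromosome 2, 117942357 to 117957614, plus strand) encodes thrombospondin 1, a matrix glycoprotein that inhibits angiogenesis, binds the receptors CD36 and CD47 and can activate latent TGF-β. It ran from 238 to 384 CPM with TGF-β1 alone, median 286, and was 154, 132, 105, 119 and 150.5 CPM with hemin. The highest hemin library was well below the lowest of the other group. The mean fell from 298 ± 50.3 to 132 ± 20.7 CPM (log2 fold change of -1.18 with SE 0.12, adjusted p = 3.04e-06 by edgeR). Per length, Tgfbi was 4.15 to 7.19 times as high as Thbs1 with TGF-β1 alone and 15.1 to 22.1 times with hemin. Platelets store thrombospondin 1, and of 4 platelet and megakaryocyte markers in the table Pf4 and Ppbp, which macrophages also make, were higher with hemin (edgeR: log2 fold change 1.63 with adjusted p = 1.26e-08, and 3.41 with adjusted p = 1.79e-09), while Itga2b and Gp1bb averaged 0.00653 and 0.00736 FPKM.

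Markers of fibroblasts, which also make the latency proteins and thrombospondin 1, varied between libraries. Of the 8 such markers found, 7 were tested and none passed (0 by edgeR, with 2 at an unadjusted p under 0.05, and 0 by DESeq2). The most abundant was Acta2, which encodes smooth muscle actin, at a mean of 26.6 FPKM, then Col1a1 at 18.3. The sum rests mainly on these genes, and Col1a1 is also on the list of secreted TGF-β targets below. Pdgfra and Thy1 averaged only 0.0679 and 0.247 FPKM. The sum is therefore not a measure of fibroblast number. Their summed level ran from 39.0 to 94.9 FPKM with TGF-β1 alone, highest in replicates 6 and 5, and from 30.5 to 54.4 FPKM with hemin, while Dcn averaged 0.0219 FPKM. In bulk RNA fewer cells of a type and less RNA per cell cannot be told apart. After the group means were removed, log2 levels over the 11 libraries followed this sum closely for Ltbp2 (Pearson r = 0.92) and Thbs1 (r = 0.86), less for Ltbp1 (r = 0.79) and Tgfb2 (r = 0.78), and not for Tgfbr2 (r = 0.04). These points share library and depth.

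A fit with the marker sum as a covariate was added after the data were seen. Its log2 fold change for Ltbp2 was -0.90 (SE 0.15, edgeR adjusted p = 0.000858), against -1.43 without the covariate. For Thbs1 it was -1.0 (SE 0.07, edgeR adjusted p = 2.62e-07), against -1.18. Those of Tgfbr2 and Tgfbi in this fit were -0.37 and 0.47. The marker sum had a lower median in the hemin libraries (43.3 FPKM) than in the others (52.5 FPKM), with overlapping ranges. The covariate is thus partly tied to the group, and the fit cannot fully separate them. The part of fibroblast RNA in the falls of Ltbp2 and Thbs1 was not tested. Without TGF-β1 replicate 6, Ltbp2 stood at -1.20 (edgeR adjusted p = 0.00692) and Thbs1 at -1.09 (edgeR adjusted p = 3.05e-06). The groups did not overlap for Ltbp2 and Thbs1, so any pair of libraries must show both lower with hemin. The 3 pairs closest in marker sum are given for their levels only. At 39.0 FPKM in TGF-β1 replicate 3 and 39.7 in hemin replicate 3, Ltbp2 was at 7.66 and 5.55 CPM and Thbs1 at 272 and 132 CPM. At 55.5 (replicate 1) and 54.4 (hemin replicate 2), Ltbp2 was at 14.5 and 6.34 and Thbs1 at 291 and 154 CPM. At 42.0 (replicate 4) and 43.3 (hemin replicate 5), Ltbp2 was at 8.59 and 3.70 and Thbs1 at 279.8 and 119 CPM. The plot of gene level against fibroblast markers shows the other libraries.

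**Figure D4:**
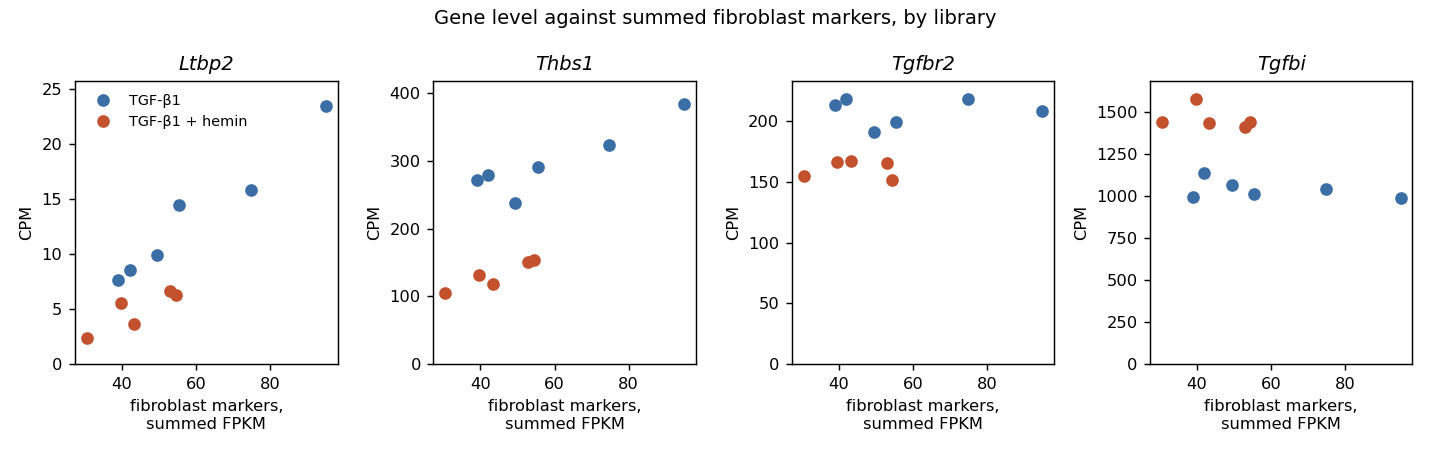
Level (CPM, vertical axis from 0) of Ltbp2, Thbs1, Tgfbr2 and Tgfbi against the summed FPKM of the fibroblast markers (horizontal axis), with 1 point per library, TGF-β1 alone in blue and hemin in orange. Ltbp2 and Thbs1 are higher in libraries with more marker signal within both groups, and Tgfbr2 and Tgfbi form flat, separate bands.

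Among themselves, the 9 genes varied in a few shared patterns, given as descriptions over 11 libraries. Within groups Ltbp2 went with Thbs1 (r = 0.90) and Ltbp1 (r = 0.81). Tgfb1 went against Tgfbr2 (r = -0.63), and Tgfbi was nearly unrelated to Tgfb1 (r = 0.08). Over all libraries, where the difference between the groups enters, Tgfbi and Thbs1 ran opposite (r = -0.94, against -0.30 within groups).

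The genes most like them in log2 CPM over the 11 libraries, out of 9408 candidates at a mean of at least 1 FPKM, were as follows. Tkt, which encodes the pentose phosphate enzyme transketolase, was most like Tgfb1 (r = 0.96), then Hdgf (r = 0.96) and Mrpl38 (r = 0.95). Most like Tgfbi were Abcc1, C3 and Cd74, each at r = 0.98 or 0.99, which encode a drug and glutathione conjugate exporter, a complement protein and the invariant chain of MHC class II. Palld (r = 0.98), a gene of actin bundling, Gvin1 (r = 0.97) and Rgs16 (r = 0.97) were most like Thbs1. These r include the difference between the groups, so the direction of change of such genes is set by how they were chosen.

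Other genes of the pathway were read from lists chosen from textbook knowledge, but with earlier results of these data known. As a description only, they are set beside all tested genes, of which 14.2% passed with a median log2 fold change of -0.0025. Among other ligands of the superfamily 1 of 9 tested was higher and 1 lower, with a median of -0.05. Gdf15, a stress-induced ligand, rose from 8.53 ± 1.29 to 20.5 ± 4.00 CPM (log2 fold change 1.27, edgeR adjusted p = 4.84e-06). Bmp2, which encodes a bone morphogenetic protein, fell from 2.70 ± 0.321 to 1.27 ± 0.275 CPM (log2 fold change -1.09, edgeR adjusted p = 0.000954). Tgfb3, the third TGF-β gene, was at 2.85 ± 0.805 and 2.01 ± 0.840 CPM and did not pass (edgeR adjusted p = 0.300).

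Of 14 tested receptors and co-receptors 4 were higher and 1 lower, with a median of -0.10. The rises were Acvrl1, which encodes the type I receptor ALK1 (48.6 ± 2.47 to 62.8 ± 2.68 CPM), Cd109, a co-receptor gene that dampens TGF-β signalling (33.9 ± 2.05 to 45.3 ± 2.17 CPM), the neuropilin gene Nrp1 (127 ± 8.65 to 165 ± 9.47 CPM) and Eng, which encodes endoglin, a partner of ALK1 (61.9 ± 3.77 to 78.3 ± 9.23 CPM). Log2 fold changes were 0.37, 0.42, 0.39 and 0.34, and the groups overlapped for Eng alone. Bmpr2, a type II receptor gene for bone morphogenetic proteins, fell from 67.9 ± 4.01 to 55.3 ± 4.03 CPM (log2 fold change -0.29, edgeR adjusted p = 0.00191). Tgfbr3, which encodes betaglycan, was near the detection limit at 0.263 ± 0.225 and 0.232 ± 0.152 CPM.

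Of 24 tested genes of latency, storage and activation 3 were higher and 4 lower, with a median of -0.01. The rises were Mmp14, a membrane protease gene (log2 fold change 1.87), Cd36, which encodes a receptor for thrombospondin 1 (0.81), and Plaur, the urokinase receptor gene, from 96.3 ± 3.40 to 131.9 ± 9.02 CPM (0.45). Tgm2, which encodes a transglutaminase that cross-links latent complexes (-0.79) and the integrin gene Itgb5 (-0.28) were lower. The protease gene Mmp9 passed narrowly with overlapping groups (log2 fold change -0.98, edgeR adjusted p = 0.0439). It did not pass in 9 of the 11 fits that left out a library, all but those without TGF-β1 replicate 4 or hemin replicate 2, nor in 4 of 10 other settings (adjusted p up to 0.118). Also lower was Furin, which encodes the protease that cleaves the TGF-β precursor, at 173 ± 16.1 and 140.3 ± 13.4 CPM with overlapping groups (log2 fold change -0.30, edgeR adjusted p = 0.00778). Nrros, the macrophage tether of latent TGF-β, stood at 28.4 ± 1.30 and 28.1 ± 1.28 FPKM (edgeR adjusted p = 0.261).

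Of 26 other secreted targets 1 was higher (Pdgfb, a growth factor gene, log2 fold change 1.08) and 3 were lower, with a median of -0.28. Fst, which encodes follistatin, a soluble activin inhibitor, fell from 6.16 ± 0.573 to 1.79 ± 0.305 CPM (log2 fold change of -1.78 with SE 0.14, adjusted p = 2.63e-07 by edgeR). The other falls were Timp1 (-1.20) and Vegfa (-0.66). Spp1, the osteopontin gene and the most abundant of the list, was at 9317 ± 472 and 8440 ± 702 FPKM and did not pass. With the fibroblast marker sum as a covariate the median was 0.04, with 5 genes higher and 3 lower, but 3 genes of the list (Col1a1, Col1a2 and Col3a1) are themselves among those markers, so part of the shift is set by construction.

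Of 19 SMAD and feedback genes 10 were lower, 52.6% of the list, and none was higher (0 by edgeR, 0 at an unadjusted p under 0.05 and 0 by DESeq2), with a median of -0.27. They included the feedback inhibitor genes Pmepa1 (-0.88) and Smad7, from 21.8 ± 1.75 to 13.1 ± 0.522 CPM (log2 fold change -0.74, edgeR adjusted p = 3.54e-06). Also lower were Id3 (-0.84) and Id1 (-0.33), which encode inhibitors of differentiation. With the covariate the count was again 10 and the median -0.26. Of the genes of the signal carriers, Smad3 fell from 13.3 ± 2.26 to 8.17 ± 0.382 CPM without overlap (log2 fold change -0.70, edgeR adjusted p = 0.000413), and Smad1, which serves the bone morphogenetic proteins, was lower too (-0.40, edgeR adjusted p = 0.00306). Smad2, whose protein is activated beside SMAD3, and the shared partner gene Smad4 did not pass, at -0.05 and -0.10. Tgif2, a repressor gene named here after its values were seen, has the lowest point of the list plot, from 3.48 ± 0.319 to 0.338 ± 0.458 CPM (edgeR adjusted p = 0.00469).

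**Figure D5:**
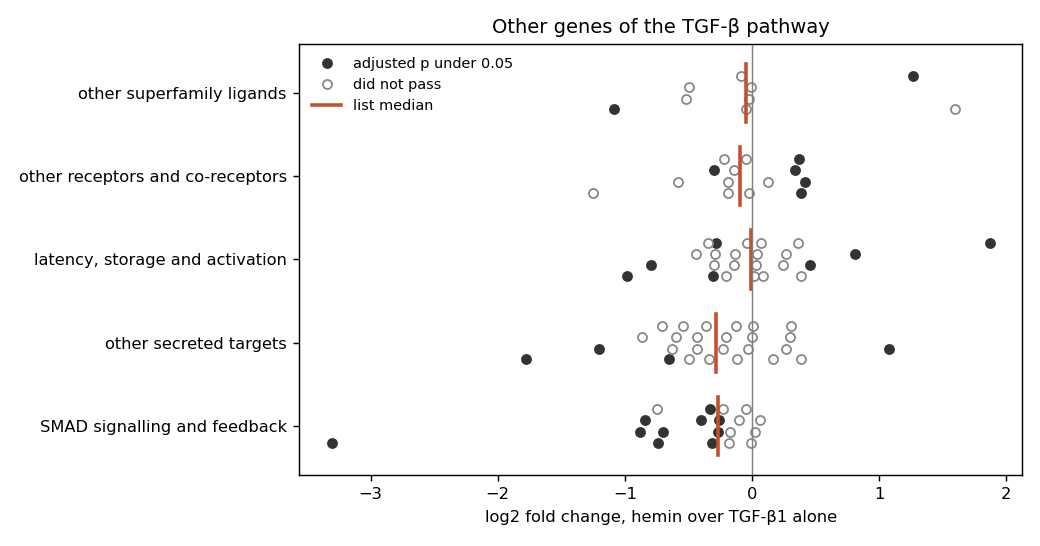
Log2 fold change (hemin over TGF-β1 alone, horizontal axis) of the tested genes of 5 lists of other TGF-β pathway genes, 1 point per gene, filled where the adjusted p was under 0.05, with the list median as an orange bar. All 10 filled points of the SMAD and feedback list lie left of 0, and the other lists have filled points on both sides.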

How the data were processed

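RNA of macrophages was measured in 11 libraries, grouped by the prefix of their title and the design text. Per the labels' protocols RNA was extracted with TRIzol, selected for poly(A) and copied with a uracil-marked second strand. The submitters' processing notes list, without roles, the build GRCm39, DESeq2, StringTie 2.1.6, HISAT2 2.2.1, FastQC 0.11.9 and cutadapt 1.9. Strand setting, annotation release and filters are not stated there, so overlapping antisense transcripts are uncertain. The authors deposited raw counts per gene and FPKM.

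In R 4.3.3, edgeR 4.0.16 tested the counts by its quasi-likelihood F test with only the group in the model, after TMM scaling and filterByExpr (10 counts at least, 15 in total). The 2-sided p-values of 15132 genes were adjusted by Benjamini-Hochberg, with a threshold of 0.05. CPM use the TMM library sizes. The SE is the size of the log2 fold change over the square root of F. Correlations use log2(CPM + 0.05). Also run were DESeq2 1.42.0, edgeR scaled by DESeq2 size factors, other filters, robust dispersion, a block for the replicate number, fits leaving out each library, and limma 3.58.1 on log2(FPKM + 1) and log2(FPKM + 0.1). The 9 genes and all lists were chosen with earlier results of these data known. Named genes are the 9 genes, the most abundant gene of each list with its called genes of smallest adjusted p (at most 3 higher and 3 lower), the 3 genes most like Tgfb1, Tgfbi and Thbs1, and leading markers, some of them given only by their list. Others were named after their values were seen.

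On counts simulated for this comparison over 15132 genes, edgeR found 42% of the genes changed 1.25-fold, 70% of those changed 1.5-fold, 90% at 2-fold and 100% at 4-fold. The changed genes, 50 per fold, were drawn only from genes above a floor in mean CPM. These shares therefore do not cover the rarest genes, such as Ltbp4. The simulated counts gave 155 calls, against 2146 in the data. With fewer changed genes the adjustment for multiple tests was stricter, so the shares do not give the power of the real comparison. No pair of libraries agreed within sampling noise (chi-square of at least 27.1 per degree of freedom).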

Additional observations from a re-analysis of the deposited data

Results flagged for a closer look

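A single library stood far from the rest of its group in 7 of 82 groups of values looked at. The cutoff marks about 1 in 20 groups of independent, normally distributed values. The genes here were selected and some vary together, so the count cannot be read as an excess. Ltbp1 was at 2.59 CPM in TGF-β1 replicate 6, against 0.871 to 1.46 in the other 5 libraries of that group. Tgfbi was at 1575 CPM in hemin replicate 3, against 1409 to 1443 in the other 4. Pmepa1 was at 367 CPM in TGF-β1 replicate 2, against 299.5 to 325. Bmp2 was at 2.097 CPM in TGF-β1 replicate 5, against 2.73 to 3.07. Nrp1 was at 149 CPM in hemin replicate 5, against 167 to 172. C3 and Cd74, which resembled Tgfbi, were at 9.74 and 109 CPM in TGF-β1 replicate 4, against 4.01 to 5.56 and 80.1 to 88.2 CPM.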

How the results depend on the processing

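The 5 genes that passed kept their direction and their side of the threshold under 9 other settings, 11 fits that each left out a library and the covariate fit added later, except Tgfb1 in limma on log2(FPKM + 1) with no filter (log2 fold change 0.21, adjusted p = 0.0597). Log2 fold changes ran from -0.48 to -0.35 for Tgfbr2, from -1.57 to -0.71 for Ltbp2, from 0.38 to 0.52 for Tgfbi and from -1.28 to -1.0 for Thbs1. The end at -0.71 for Ltbp2 came from limma with 1 added to FPKM, a value near the level of this gene. With 0.1 added limma gave -1.35. Tgfb2, which did not pass, turned to 0.29 with the fibroblast marker sum as a covariate (edgeR adjusted p = 0.758), and the cause was not tested. The count of called superfamily ligands was 1 in place of 2 with a mean FPKM of at least 1 and in limma on log2(FPKM + 1) and log2(FPKM + 0.1), which tested 3 of them. Other secreted targets numbered 7 in both of these limma fits and 8 with the covariate, in place of 4, and ran from 4 to 7 with a library left out, 7 without TGF-β1 replicate 3. With a library left out 1704 to 2169 of all genes passed, and 5 of the 9 in each fit.

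With the replicate number as a block 1543 genes passed, and 5 of the 9, among them Tgfb1 at a log2 fold change of 0.35 and Thbs1 at -1.18. Deviations from the group mean correlated at r from -0.24 to 0.21 between libraries of the same number, over numbers 2 to 6. TGF-β1 replicates 2 (r = 0.12) and 6 (r = 0.21) were most like the hemin library of their own number. Replicates 3, 4 and 5 were most like a hemin library of another number. The labels do not say what the numbers mark, so the main fit does not treat them as pairs. Whether they are pairs is not settled by these values. On FPKM the median of all genes stood at -0.09 (pseudocount 1) and -0.10 (0.1). Low counts limit Tgfb2, Ltbp1 and Ltbp4, which were left out by the filters at an FPKM of 1.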
